A study of Homo sapiens with 6 samples.

Results

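The genes described here are the metallothioneins of the cluster on chromosome 16 (*MT1A*, *MT1E*, *MT1F*, *MT1G*, *MT1M*, *MT1X*, *MT2A*, and *MT3*) and the gene of their regulator, *MTF1*. They were chosen by name, as the rows of the raw count table that carry these symbols, with earlier results of these data known. They make up 9 of its 60623 genes. The RNA came from TC28a2 cells, an immortalized human chondrocyte line. A single line in culture stands in for cartilage cells here. It was treated for 24 hours with mocetinostat at 2 μM or with DMSO, the solvent. Mocetinostat inhibits the class I histone deacetylases (HDACs). Each condition had 3 samples, described by the study as independent experiments. The p-values of single genes set the difference between conditions against the spread between samples, which the fit estimates across all genes tested. The comparison asks which genes mocetinostat regulated in these cells.

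Metallothioneins are small, cysteine-rich proteins that bind zinc and copper, and also toxic metals such as cadmium. They buffer free zinc, and their cysteines react with oxidants. Their genes are classic targets of MTF1 (metal regulatory transcription factor 1), a zinc finger protein that binds zinc, enters the nucleus, and occupies short metal response elements in their promoters. In chondrocytes, zinc taken up through the importer ZIP8, the product of *SLC39A8*, is known to activate MTF1 and, with it, metallothionein genes and matrix-degrading enzymes.

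The 8 metallothionein genes lie within 95.1 kb of chromosome 16 (chr16:56589074-56684196, GRCh38), in the order *MT3*, *MT2A*, *MT1E*, *MT1M*, *MT1A*, *MT1F*, *MT1G*, and *MT1X*. All are on the plus strand except *MT1G*. *MTF1* is on the minus strand of chromosome 1. The promoters of *MT2A* and *MT1X* are shown, the only metallothionein members matched in the promoter table. These genes carried most of the metallothionein counts and the largest change of an MT1 gene, respectively. The sequences are the 250 bases before the start of each gene in RefSeq on GRCh38.p14, both on the plus strand, at chr16:56608334-56608583 for *MT2A* and chr16:56682220-56682469 for *MT1X*. Capitals mark the core of the metal response element, searched as TGCACNC or TGCGCNC on both strands, and no match overlaps another.
MT2A: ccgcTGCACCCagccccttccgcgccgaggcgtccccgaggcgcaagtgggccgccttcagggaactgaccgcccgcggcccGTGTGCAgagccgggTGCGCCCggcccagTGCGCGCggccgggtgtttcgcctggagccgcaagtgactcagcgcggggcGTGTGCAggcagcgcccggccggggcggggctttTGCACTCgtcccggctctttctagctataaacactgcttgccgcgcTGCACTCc
MT1X: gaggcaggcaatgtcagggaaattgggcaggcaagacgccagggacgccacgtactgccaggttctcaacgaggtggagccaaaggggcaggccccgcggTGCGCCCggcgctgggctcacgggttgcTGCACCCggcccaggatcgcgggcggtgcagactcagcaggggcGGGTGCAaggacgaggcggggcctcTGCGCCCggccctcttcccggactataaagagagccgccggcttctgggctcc
The *MT2A* promoter held 7 matches, 5 on the strand of the gene and 2 on the other, with first bases from -246 to -8 relative to the start. The *MT1X* promoter held 4 matches, 3 and 1 on these strands, from -150 to -53. Among the 35116 RefSeq promoters of this length, 24.8% held at least 1 match, 0.370% held at least 4, and 0.120% held at least 5. Both promoters also held TATAAA, the letters of a TATA box, as did 6.80% of all promoters. No match was found in the same window of *MTF1* (chr1:37859593-37859842). Among the 9 genes, 3 were matched in the promoter table. Of the metallothionein genes outside the members, *MT1H* held 8 matches and *MT1B* and *MT4* held 3 each. *MT1H* had no counts in any sample, *MT1B* at most 1, and *MT4* at most 2. Several matches were thus not particular to the genes with counts. These are matches of letters and not measured binding sites.

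Total counts were 4873426 to 11031132 per sample with DMSO and 1619344 to 5089542 with mocetinostat, so low counts were less precise in mocetinostat-treated samples. After edgeR's expression filter, 13966 genes were tested. The chondrocyte label was set beside 10 chondrocyte and 6 fibroblast markers. With DMSO, *SOX9* was at 106.4 CPM (counts per 1000000, scaled by TMM, edgeR's normalization between libraries), whereas *COL2A1* was at 2.20, *ACAN* at 4.72, and *COMP* at 0.483 CPM. Among the fibroblast markers, *COL1A1* was at 4544 and *COL3A1* at 528.0 CPM, whereas *COL1A2* was at 2.51, *LUM* at 2.01, *PDGFRA* at 0.885, and *DCN* at 0.725 CPM. Upregulated genes, defined in the next paragraph, made up 20.2% of all genes tested and downregulated genes 8.18%. Of the 8 chondrocyte markers tested, 6 were upregulated and none was downregulated, and of the 5 fibroblast markers tested, 3 were upregulated and 1 was downregulated. Some of the upregulated markers, such as *COMP* and *PDGFRA*, passed the filter only through their mocetinostat counts. A lower value was not open to them, so the counts of markers are descriptions. The part of these markers in the metallothionein values was not tested.

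Mocetinostat raised the metallothionein RNAs that these cells expressed. In the table, *MT2A*, *MT1X*, *MT1F*, and *MT3* were upregulated, meaning an adjusted p under 0.05 and a log2 fold change over 1. The test was edgeR's quasi-likelihood test, adjusted by the Benjamini-Hochberg method over all genes tested. *MT1E* also rose but stayed under the fold threshold, *MTF1* did not pass the test, and *MT1A*, *MT1G*, and *MT1M* had too few counts to be tested. Thus 4 of the 6 members tested were upregulated, against 20.2% of all genes tested, and none was downregulated, against 8.18%. At an adjusted p under 0.05 alone, 5 of the 6 were higher, against 32.9%, and none was lower, against 31.4%. At an unadjusted p under 0.05, edgeR also found 0 members lower, and DESeq2 called 0 downregulated. The CPM ranges of the conditions did not overlap for 5 of the 6, which was also the case for 66.5% of all genes tested. The median log2 fold change of the 6 was 1.18, beside -0.00 over all genes tested. *MT3* passed the filter only through its mocetinostat counts, so a lower value was not open to it. The members were also chosen with earlier results of these data known. The counts of members above and this median, which include *MT3*, are therefore descriptions. The call of *MT1F* rested on single samples, as given below. These are bulk samples, in which more cells expressing a gene and more RNA per cell cannot be told apart.

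*MT2A* (ENSG00000125148, chr16:56608584-56609497) is the main metallothionein gene of most human tissues. In the order of the replicate numbers, as for the other genes, its counts were 2789, 1526, and 1844 under DMSO and 3196, 1072, and 1521 under mocetinostat. Scaled by TMM, these were 252.3, 317.8, and 271.8 CPM with DMSO and 633.6, 664.3, and 630.4 CPM with mocetinostat. Every mocetinostat sample was above every DMSO sample, and the lowest of them was 630.4 against a highest DMSO value of 317.8 CPM. The mean went from 280.6 ± 33.6 to 642.8 ± 18.7 CPM (SD, n = 3). This is a log2 fold change of 1.20 (SE 0.08), or 2.30-fold, with an adjusted p of 8.2e-23 by edgeR's quasi-likelihood test.

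*MT1X* (ENSG00000187193, chr16:56682470-56684196), a broadly expressed and metal-inducible MT1 gene, had the largest change among the MT1 genes tested. Its counts were 251, 107, and 148 with DMSO and 478, 140, and 174 with mocetinostat. The DMSO values were close together at 22.7, 22.3, and 21.8 CPM. Values with mocetinostat were 94.8, 86.8, and 72.1 CPM. All 3 mocetinostat samples thus lay far above the DMSO samples, with a wider spread among themselves. The mean went from 22.3 ± 0.448 to 84.5 ± 11.5 CPM, a log2 fold change of 1.93 (SE 0.14), or 3.82-fold, with an adjusted p of 3.56e-21 by edgeR's quasi-likelihood test. Of the 305 windows of 100 bases, the read length, in its main transcript, 67 (22.0%) also occur in a long noncoding RNA (ENSG00000259827). This RNA overlaps exons of *MT1X* on the same strand, and its row held no counts in any sample. How reads that overlap both genes were counted is not stated, so the empty row does not show that *MT1X* lost no reads.

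*MT1E* (ENSG00000169715, chr16:56625475-56627112), another MT1 gene, rose by a smaller amount. Its counts were 699, 274, and 423 under DMSO and 507, 190, and 246 under mocetinostat, which overlap in libraries of unequal size. In CPM, the values were 63.2, 57.1, and 62.3 with DMSO and 100.5, 117.7, and 102.0 with mocetinostat. The conditions did not overlap. Its mean of 60.9 ± 3.34 CPM became 106.7 ± 9.56 CPM, a log2 fold change of 0.79 (SE 0.11), or 1.73-fold, with an adjusted p of 5.96e-09 by edgeR's quasi-likelihood test. *MT1E* therefore rose by a tested amount but did not reach the threshold for an upregulated gene.

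*MT1F* (ENSG00000198417, chr16:56657731-56660698) was expressed at a low level and had a fold change near that of *MT2A*, with a larger error. Its counts were 27, 13, and 27 under DMSO and 30, 10, and 20 under mocetinostat, equal to 2.44, 2.71, and 3.98 CPM and to 5.95, 6.20, and 8.29 CPM. The lowest mocetinostat value was above the highest DMSO value, by less than the distance between the lowest and highest mocetinostat samples. The mean went from 3.04 ± 0.821 to 6.81 ± 1.29 CPM, a log2 fold change of 1.15 (SE 0.39) with an adjusted p of 0.00771 by edgeR's quasi-likelihood test. The call rested on single samples. Without DMSO replicate 1 the log2 fold change was 0.96 with an adjusted p of 0.0506 in the same test, without mocetinostat replicate 3 it was 0.99 with 0.0556, and DESeq2 gave 1.13 with 0.0652.

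*MT3* (ENSG00000087250, chr16:56589074-56591088), a brain-enriched metallothionein known as growth inhibitory factor, was close to 0 with DMSO and detected in every mocetinostat sample. Its counts were 1, 0, and 0 under DMSO and 13, 8, and 12 under mocetinostat, although the mocetinostat libraries were smaller. The count in DMSO replicate 1 equals 0.0905 CPM, the counts of 0 in DMSO replicates 2 and 3 allow up to 0.625 and 0.442 CPM, and the mocetinostat samples were at 2.58, 4.96, and 4.97 CPM. Summed over samples, 33 counts against 1 gave a ratio of 82.4 after division by library size, with an exact 95% interval of 13.8 to 3351 that covers counting error only. The fitted log2 fold change was 5.85 (SE 0.88) with an adjusted p of 2.3e-08 by edgeR's quasi-likelihood test, and its size depends on the prior count of the fit. None of the 100-base windows of *MT3* came within 2 mismatches of another metallothionein transcript, and the smallest number of mismatches was 11.

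The 3 remaining metallothionein genes were barely detected. *MT1A* (ENSG00000205362, chr16:56638666-56640087) had 1, 2, and 0 counts with DMSO and none with mocetinostat. *MT1G* (ENSG00000125144, chr16:56666730-56668065) had 2 counts, both in mocetinostat replicate 1, and *MT1M* (ENSG00000205364, chr16:56632659-56633981) had 1 count in DMSO replicate 1 and 1 in mocetinostat replicate 1. A count of 0 allows up to 3 counts, which is 0.271 to 0.625 CPM in the DMSO libraries and 0.595 to 1.86 CPM in the mocetinostat libraries. Differences in these genes were not detectable at this depth.

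*MTF1* (ENSG00000188786, chr1:37809574-37859592), the zinc-sensing activator of this family, did not pass the test. Its counts were 518, 227, and 288 with DMSO and 229, 100, and 107 with mocetinostat. In CPM, the DMSO samples were at 46.9, 47.3, and 42.4 and the mocetinostat samples at 45.4, 62.0, and 44.3. The conditions overlapped, and mocetinostat replicate 2, the smallest library, stood above the others. The means were 45.5 ± 2.68 and 50.6 ± 9.89 CPM, a log2 fold change of 0.11 (SE 0.14) with an adjusted p of 0.477 by edgeR's quasi-likelihood test. The 95% interval of the log2 fold change was -0.15 to 0.38. The RNA level does not measure MTF1 protein or its location in the cell.

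**Figure D1:**
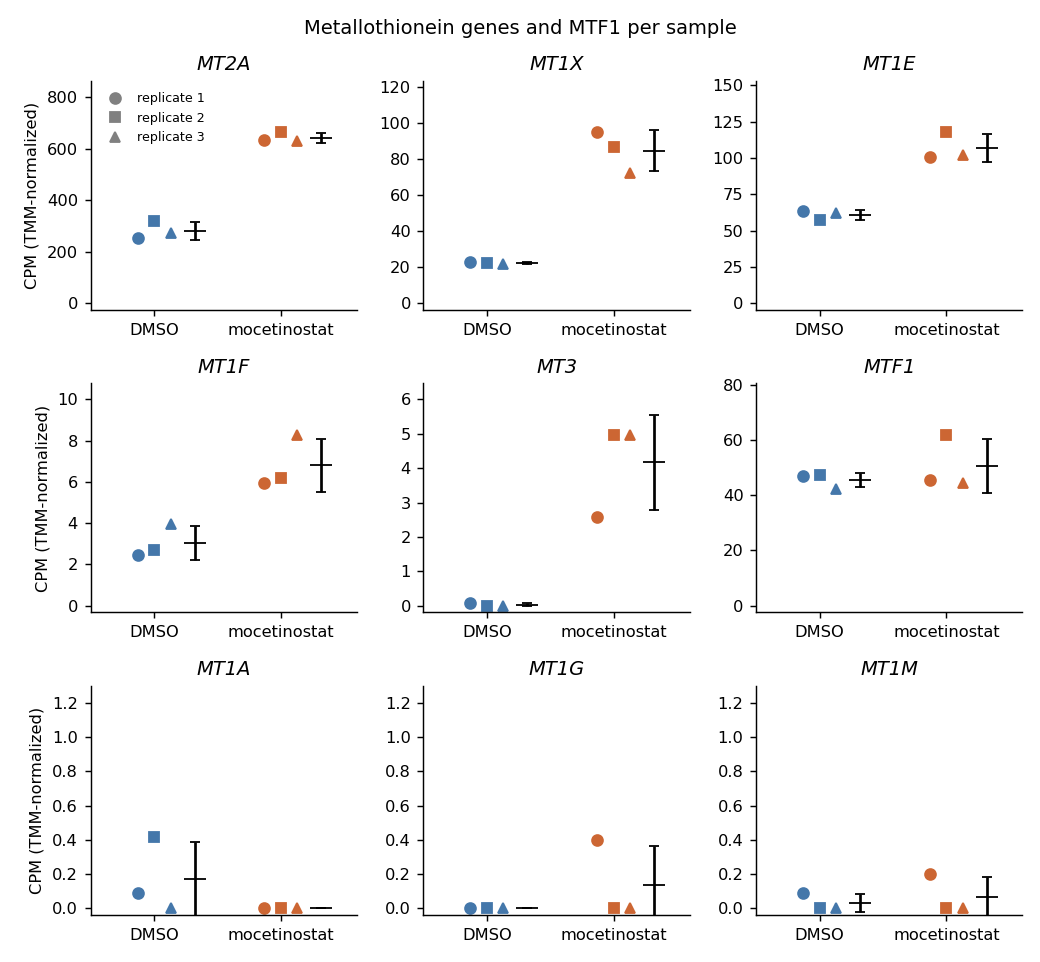
Each panel plots 1 gene, with the TMM-normalized CPM of each sample on the vertical axis (circles, squares, and triangles are replicates 1, 2, and 3) and the mean ± SD (n = 3) as a black bar. The mocetinostat samples of MT2A, MT1X, MT1E, MT1F, and MT3 sit above all DMSO samples, the MTF1 samples overlap, and MT1A, MT1G, and MT1M have at most 2 counts in any sample.

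The level per length orders the genes. With DMSO, in CPM per kilobase of the main transcript, *MT2A* was at 699.8 ± 83.8, *MT1E* at 81.6 ± 4.48, and *MT1X* at 55.1 ± 1.11. *MT1F*, at 7.16 ± 1.93, and *MTF1*, at 5.74 ± 0.337, did not differ by more than their spread, and *MT3* was at 0.0743. With mocetinostat, *MT2A* was at 1603 ± 46.8, *MT1X* at 209.3 ± 28.4, and *MT1E* at 143.1 ± 12.8 CPM per kilobase, so *MT1X* and *MT1E* changed places. The levels of *MT1F* (16.03 ± 3.03), *MT3* (10.3 ± 3.40), and *MTF1* (6.37 ± 1.25) followed. The ranges of mean ± SD of neighbors in this order overlapped, but every *MT1F* sample was above every *MT3* sample, whereas the samples of *MT3* and *MTF1* overlapped. The place of *MT1X* depends on the length used: over all annotated exons of each gene, *MT1E* was at 101.5 and *MT1X* at 49.0 CPM per kilobase with mocetinostat.

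Summed over the 8 genes, metallothionein counts were 3769, 1922, and 2442 with DMSO and 4227, 1420, and 1973 with mocetinostat. The sum was 341.0, 400.2, and 359.9 CPM with DMSO and 838.0, 880.0, and 817.7 CPM with mocetinostat. The conditions were far apart, at 367.0 ± 30.3 and 845.2 ± 31.8 CPM (SD, n = 3), a log2 difference of 1.21, or 2.31-fold. As a share of all counts, this was 0.0342%, 0.0394%, and 0.0353% in DMSO replicates 1 to 3 and 0.0831%, 0.0877%, and 0.0816% in mocetinostat replicates 1 to 3. The 95% Wilson interval of the highest DMSO share was 0.0377% to 0.0412%, and that of the lowest mocetinostat share was 0.0781% to 0.0853%. No test was made on the sum because its members were chosen. The sum is less affected than single rows by reads placed on the wrong family member. Of the 100-base windows of the main transcripts, 18.5% in *MT2A*, 13.4% in *MT1X*, and 3.86% in *MT1E* lay within 2 mismatches of another metallothionein transcript.

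The makeup of the sum shifted among the MT1 genes while the shares of *MT2A* overlapped. *MT2A* held 74.0%, 79.4%, and 75.5% of the metallothionein counts with DMSO and 75.6%, 75.5%, and 77.1% with mocetinostat, ranges that overlap. *MT1E* held 18.5%, 14.3%, and 17.3% with DMSO and 11.99%, 13.4%, and 12.5% with mocetinostat, and the share of *MT1X* was 6.66%, 5.57%, and 6.06% against 11.3%, 9.86%, and 8.82%. Each mocetinostat sample thus had a lower *MT1E* share and a higher *MT1X* share than any DMSO sample. *MT1F* held 0.833% ± 0.237 and 0.809% ± 0.177 of the sum, and *MT3* went from 0.00884% to 0.493% ± 0.162.

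A ratio of genes within a library does not depend on scaling between libraries. For each count of *MT2A* there were 0.0900, 0.0701, and 0.0803 counts of *MT1X* with DMSO and 0.150, 0.131, and 0.114 with mocetinostat. Every mocetinostat ratio was above every DMSO ratio. The log2 ratio differed by 0.71, or 1.64-fold, with a two-sided p of 0.1 by the exact permutation test over samples, which is the smallest p that 3 against 3 samples can give. The design cannot pass a threshold of 0.05 for a single ratio.

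**Figure D2:**
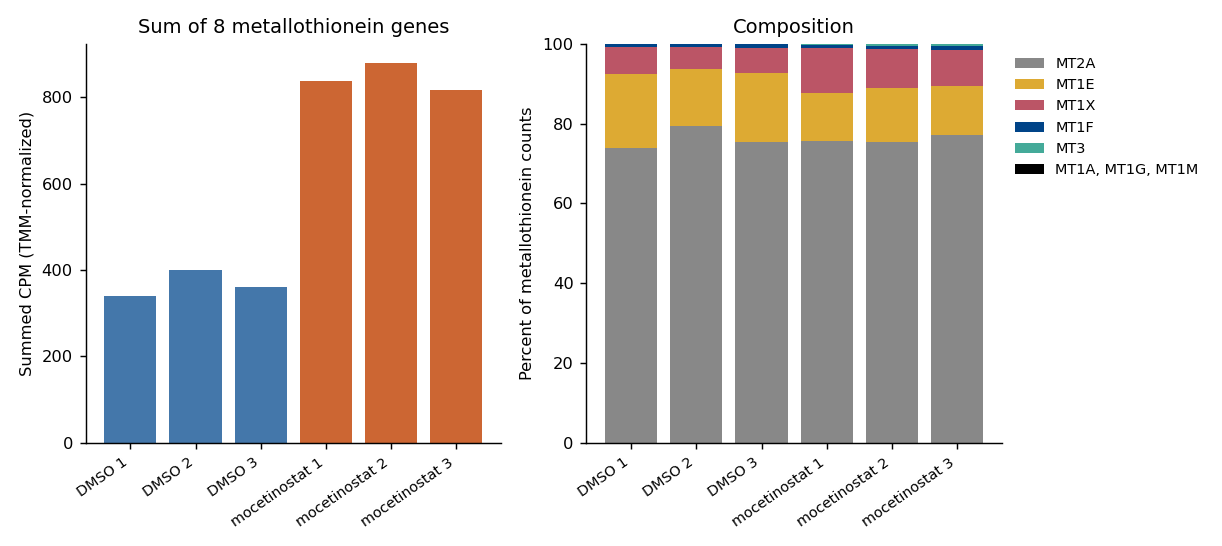
On the left, bars give the TMM-normalized CPM summed over the 8 metallothionein genes in each sample, at 341.0 to 400.2 with DMSO and 817.7 to 880.0 with mocetinostat. On the right, stacked bars give the percent of the metallothionein counts held by each gene, with MT2A near the same share in both conditions, a narrower MT1E band, and a wider MT1X band with mocetinostat.

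The direction of each tested metallothionein gene was the same under the 3 other scalings, by RLE size factors, by library size, and by *GAPDH*. *GAPDH* itself was lower with mocetinostat, with a log2 fold change of -0.53, so that scaling by it shifted the median of all genes by 0.54 on the log2 scale. It raised the log2 difference of the metallothionein sum from 1.21 to 1.73 and the log2 fold change of *MTF1* from 0.11 to 0.65. Over all alternatives, the log2 fold change of *MT1X* was between 1.68 and 2.47 and passed both thresholds in 15 of 15. The *MT2A* value was between 0.95 and 1.72 and passed in 14 of 15, and *MT1E* ranged from 0.54 to 1.33, with 1 of 15 over both thresholds, the scaling by *GAPDH*. *MT1F* passed in 9 of the 14 alternatives that tested it, and *MT3* in 13 of 13.

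**Figure D3:**
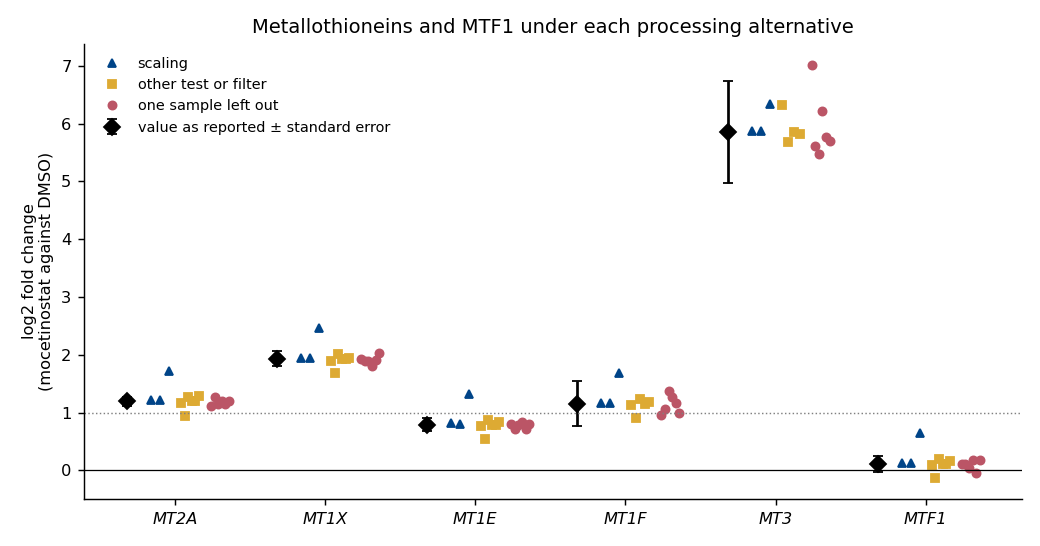
The vertical axis gives the log2 fold change of mocetinostat against DMSO for the 6 genes tested, as reported (black diamonds, ± SE) and under each alternative (triangles for scalings, squares for other tests or filters, circles for 1 sample left out), with a dotted line at 1. MT1X and MT3 stay above the line, MT2A falls below it only without the expression filter (0.95), MT1F lies on both sides of it, and MTF1 stays near 0 except when scaled by GAPDH (0.65).

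The values of *MT2A* dominate the sum, and other genes followed it across the samples. Among the 10259 genes with a mean of at least 10 CPM, the log2 CPM of *ZNF385A* had the highest Pearson correlation with the log2 metallothionein sum over the 6 samples, at 0.9998. The next 4 were *AQP3*, which encodes a water and glycerol channel (0.9997), *CACNA1A*, a calcium channel subunit (0.9995), *SNPH* (0.9994), and *TPPP* (0.9993). These genes rose more than the sum, with log2 fold changes of 1.97, 3.46, 2.04, 2.29, and 5.60. The samples fall into 2 conditions and share their libraries, so the correlations contain the difference between conditions and are given without a p.

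The genes around the cluster were also compared. The list of 31 other genes on either side of the cluster runs from *IRX3*, at -2325.3 kb from *MT2A*, to *DOK4*, at 863.3 kb. Of these, 22 were tested, with 7 upregulated and 1 downregulated, beside 20.2% and 8.18% of all genes tested. At an adjusted p under 0.05 alone, 11 were higher and 7 lower, beside 32.9% and 31.4%, and the median was 0.25 on the log2 scale. Among the 9 tested genes whose start lies within 500 kb of *MT2A*, 3 were upregulated and 1 was downregulated, with a median of 0.05. The nearest gene tested before the cluster, *BBS2*, a Bardet-Biedl syndrome gene, rose by 0.44 on the log2 scale (SE 0.13). The nearest after it, *NUP93*, a nuclear pore subunit, had a value of -0.18 (SE 0.10) that did not pass the test. *GNAO1*, a G protein subunit gene at -417.2 kb from *MT2A*, was upregulated by 1.47, and *HERPUD1*, an endoplasmic reticulum stress gene at 323.6 kb, by 1.45. *NUDT21*, an mRNA 3′ end processing factor gene at -179.5 kb from *MT2A*, was downregulated, with a value of -1.06. *NLRC5* (1.12), *LPCAT2* (1.81), *IRX5* (1.37), *PLLP* (4.51), and *CX3CL1* (4.28) were also upregulated, the last 2 from 5 counts or fewer in every DMSO sample. *PLLP* and *CX3CL1* passed the filter only through their mocetinostat counts, so a lower value was not open to them. The counts and the median of the list, which include both, are therefore descriptions. *LPCAT2* and *IRX5* lie far from the cluster, at -1099.5 and -1677.7 kb from *MT2A*. Exons of other genes, on either strand, overlap part of *NUDT21* and *PLLP*, whose values are uncertain to that extent.

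**Figure D4:**
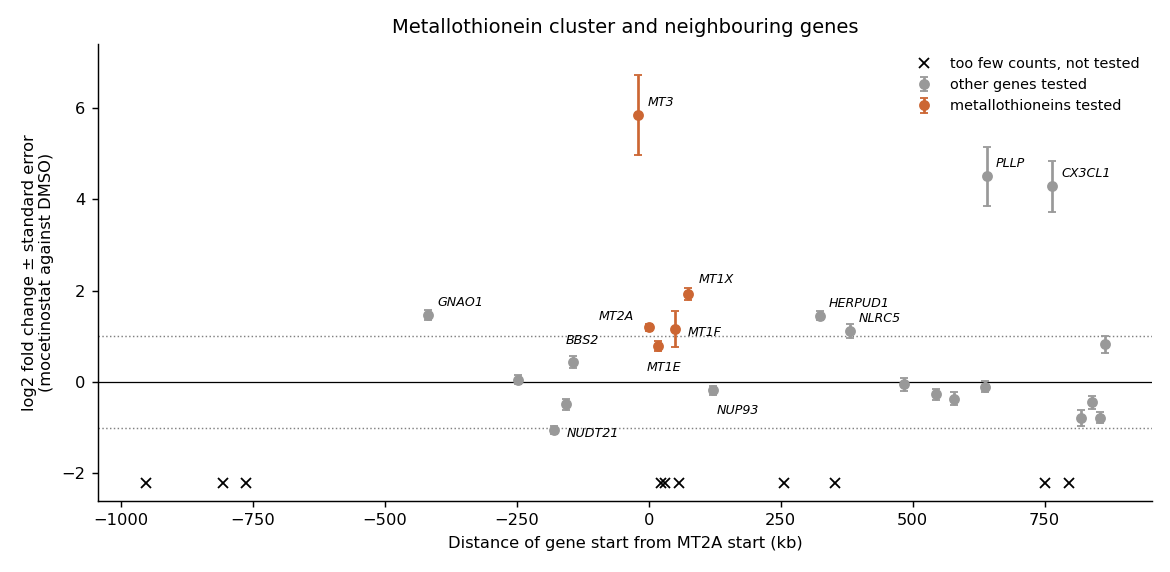
The horizontal axis gives the distance in kb of each gene's start from the start of MT2A along chromosome 16, and the vertical axis the log2 fold change ± SE of mocetinostat against DMSO (orange for metallothioneins, gray for other genes, dotted lines at 1 and -1, labels on metallothioneins, called genes, and the nearest neighbors). Crosses at the bottom mark genes with too few counts to be tested and carry no fold change. Genes of the list farther away than the axis reaches, among them IRX5 and LPCAT2, are not plotted. The 5 tested metallothioneins lie between 0.79 and 5.85, while BBS2 and NUP93 on either side are at 0.44 and -0.18.

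Zinc reaches MTF1 through transporters, of which the ZIP family (*SLC39*) moves zinc into the cytosol and the ZnT family (*SLC30*) moves it out or into vesicles. Of 24 such genes, 17 were tested, and 3 were upregulated and none was downregulated. At an adjusted p under 0.05 alone, 7 were higher and 6 lower, and the median log2 fold change was 0.02. Over all genes tested, 20.2% were upregulated, 8.18% downregulated, 32.9% higher, and 31.4% lower, so the count of upregulated genes in this list is near that of all genes. None of the list was downregulated by edgeR or by DESeq2, and 7 were lower at an unadjusted p under 0.05 by edgeR. *SLC39A8* and *SLC30A2* passed the filter only through their mocetinostat counts, so a lower value was not open to them. The counts and the median of this list, which include both, are therefore descriptions.

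The largest value in this list was that of *SLC39A8*, the zinc importer ZIP8. Its counts were 9, 3, and 6 under DMSO and 84, 25, and 50 under mocetinostat, or 0.814, 0.625, and 0.884 CPM and 16.7, 15.5, and 20.7 CPM. The mocetinostat samples were all far above the DMSO samples. The log2 fold change was 4.44 (SE 0.38) with an adjusted p of 4.97e-17 by edgeR's quasi-likelihood test. *SLC30A2* and *SLC30A3*, vesicular zinc transporters, were upregulated by 3.88 (SE 0.67) and 2.51 (SE 0.29), the former from 5 counts or fewer in each DMSO sample. *SLC30A1*, the zinc exporter of the plasma membrane and itself a known MTF1 target, had 54.2, 42.1, and 42.3 CPM with DMSO and 80.3, 86.8, and 89.1 CPM with mocetinostat. It rose by 0.86 on the log2 scale (SE 0.12, adjusted p of 7.91e-09 by edgeR's quasi-likelihood test), close to the value of *MT1E*. *SLC39A14*, the zinc and iron importer ZIP14, rose by 0.74 (SE 0.08). *SLC39A10*, an importer gene known to be repressed by MTF1, had a value of -0.19 (SE 0.15) that did not pass the test. *SLC30A7* and *SLC39A7*, transporters of the secretory pathway, fell by 0.65 and by 0.54 on this scale.

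Metallothioneins also bind copper, and 17 copper handling genes were compared as well. Of these, 16 were tested, and 3 were upregulated and 1 was downregulated, beside 20.2% and 8.18% of all genes tested. At an adjusted p under 0.05 alone, 7 were higher and 3 lower, beside 32.9% and 31.4%, and the median log2 fold change was 0.06. The count of upregulated genes is near that of all genes. *ATP7B*, a copper-exporting ATPase, rose by 1.89 (SE 0.23) and *STEAP2*, a metalloreductase, by 1.65 (SE 0.31). *SLC31A2* was upregulated by 1.06 (SE 0.28), but exons of the antisense gene *FKBP15* cover 64.0% of its own, and the counting is not stated to use strand. *COMMD1*, a factor in copper export, was downregulated, at -1.08 (SE 0.25), and a pseudogene on its strand covers 33.6% of its exons. *SLC31A1*, the main copper importer CTR1, had a value of 0.08 (SE 0.13) that did not pass the test. The copper count was sensitive to single samples: 2 to 5 genes were upregulated, and *COMMD1* was not called without DMSO replicate 1 or without mocetinostat replicate 3, when 5 were upregulated.

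**Figure D5:**
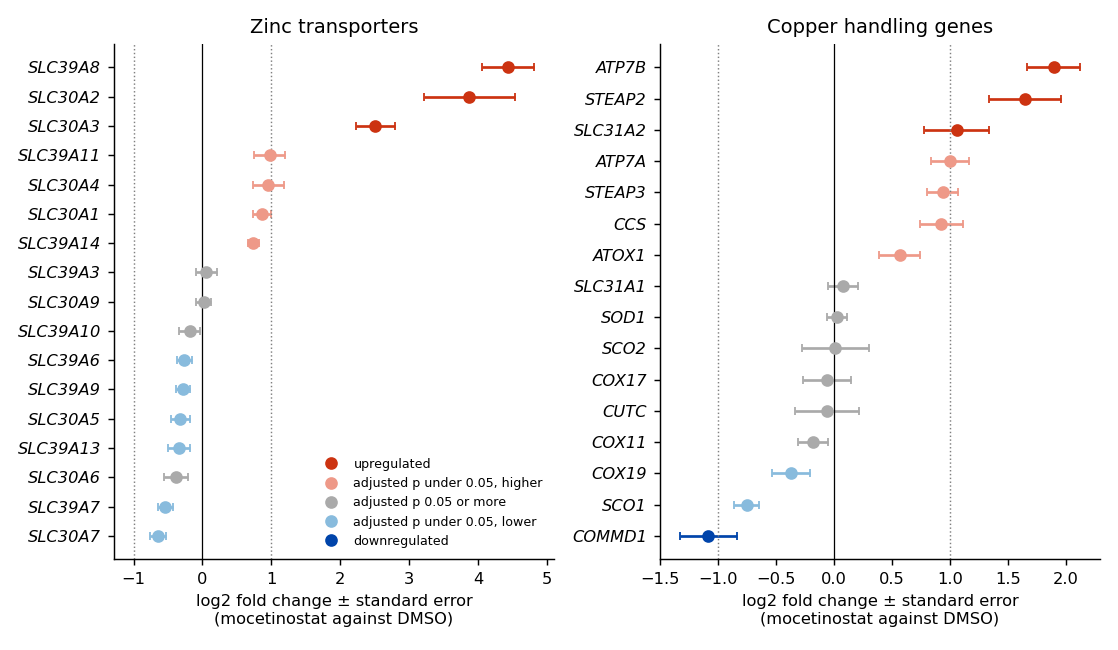
The horizontal axes give the log2 fold change ± SE of mocetinostat against DMSO for the 17 zinc transporters (left) and 16 copper handling genes (right) that were tested, colored by call, with dotted lines at 1 and -1. Both lists spread to either side of 0, with SLC39A8 (4.44) and ATP7B (1.89) highest.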

How the data were processed

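RNA was sequenced in TC28a2 cells treated with DMSO or mocetinostat (n = 3 each), as single reads of 100 bases. The deposited values are raw counts per gene, made by the authors with STAR 2.6.1d on GRCh38 (Ensembl 98) and featureCounts 1.6.4, versions that are also in the submitters' processing notes with DESeq2 1.20.0. The sources used here do not state the strand setting or how reads with several matches were counted, so reads of near-identical metallothioneins may be lost or misplaced. Counts of all 60623 genes were scaled by TMM and filtered with filterByExpr (minimum count 10), and treatment was tested with edgeR 4.0.16 (limma 3.58.1, R 4.3.3) by its quasi-likelihood test, with Benjamini-Hochberg adjustment over 13966 genes. The thresholds for upregulated and downregulated genes were those of the study (adjusted p of 0.05, log2 fold change of 1 in size). "Rose" and "fell" need the adjusted p only.

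SE is the absolute log2 fold change divided by the square root of F. A pseudocount of 0.5 was used for the ratio of *MT1X* to *MT2A*. Positions and lengths are from GENCODE 44 (99.5% of genes matched), and promoters are from RefSeq. The 9 members and the lists were chosen with earlier results of these data known. Named genes are the members, other metallothionein rows, up to 6 called genes per direction in each list, *SLC30A1*, *SLC39A10*, *SLC31A1*, *NR3C1*, *GAPDH*, *HDAC1* to *HDAC3*, and the 5 genes closest to the metallothionein sum. *SLC39A14*, *SLC30A7*, *SLC39A7*, *BBS2*, *NUP93*, *NLRC5*, and the markers given by level were chosen after their values were seen. The intervals of shares and of the *MT3* ratio, and the limits for counts of 0, cover counting error only. The interval of *MTF1* is built from its SE and so reflects the spread between samples in the fit. The reads carry no molecular identifiers. Replicates of a condition differed by more than sampling noise (chi-square per degree of freedom of 1.93 to 7.95) and were counted as separate samples.

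Alternatives were DESeq2 1.42.0, scaling by library size, by *GAPDH*, or by RLE size factors, no expression filter, at least 10 counts in every sample, glmTreat, a replicate block, libraries thinned to 1619344 counts, all metallothionein rows summed, no pseudocount, and each sample left out. Thinned shares and levels over all annotated exons were added after seeing the data. Python 3.11.15 was used for summaries and figures.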

Additional observations from a re-analysis of the deposited data

How the results depend on the processing

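Of the 9 members, 4 were upregulated as reported, 2 without an expression filter (*MT1X* and *MT3*, with *MT2A* at 0.95), 2 after thinning to 1619344 counts (*MT2A* and *MT1X*), 3 with DESeq2, and 3 to 4 with 1 sample left out. Thinning left *MT3* and *MT1F* untested, and a minimum of 10 counts in every sample left *MT3* untested. The log2 fold change of *MTF1* was -0.14 without the filter, which shifted the median of all genes by -0.25, and between -0.039 (without mocetinostat replicate 2) and 0.19 with 1 sample left out; only scaling by *GAPDH* put it past the test (0.65, adjusted p of 7.43e-05 by edgeR's quasi-likelihood test). Scaling by *GAPDH* gave a log2 difference of 1.73 for the metallothionein sum. The difference in the *MT2A* share was -0.24 percentage points as reported and 1.09 after thinning.

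Zinc transporters upregulated were 7 with *GAPDH* scaling and 2 after thinning, against 3. Copper handling genes upregulated were 7 with *GAPDH* scaling, 6 with the 10-count minimum, 5 after thinning, 2 with glmTreat, and 2 to 5 with 1 sample left out, against 3; those downregulated were 0 with *GAPDH* scaling, 2 without a filter, 0 with glmTreat, and 0 to 1 with 1 sample left out, against 1. Glucocorticoid response genes upregulated were 6 with *GAPDH* scaling and 3 without a filter, with the 10-count minimum, and with glmTreat, against 4. Those downregulated were 1 with *GAPDH* scaling and 0 with the 10-count minimum, with glmTreat, and after thinning, against 2. With 1 sample left out, 1 to 2 were downregulated. Genes beside the cluster downregulated were 0 with *GAPDH* scaling, with the 10-count minimum, with glmTreat, and after thinning, and 3 without a filter, against 1; those upregulated were 5 to 10, against 7.

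Over all genes, 2827 were upregulated and 1142 downregulated (71.2% upregulated). These were 4425 and 284 with *GAPDH* scaling (94.0%), 3201 and 2120 without a filter (60.2%), 1620 and 704 with the 10-count minimum, and 2069 and 465 with glmTreat (81.6%). Whether same-numbered samples of the conditions came from the same experiment is not stated. Their deviations correlated at 0.04, 0.04, and -0.05 across 6279 genes, so no shared effect was visible, which does not settle the pairing. With the replicate number as a block, 2798 and 1133 genes and the same number of members (4) were called. The causes of these differences were not tested. Depth limits *MT1A*, *MT1G*, *MT1M*, *MT3*, and *MT1F* most.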

Other observations

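Other metallothionein rows of the table held almost no counts. There were 12, among them *MT4*, *MT1B*, *MT1H*, and pseudogenes such as *MT1L*, *MT1JP*, and *MT1DP*. Of these, 5 had no counts in any sample, the highest count in a sample was 5, and together they held 16 counts, against 15753 for the 8 members. Summing them with the members left the log2 difference of the sum at 1.20.

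Glucocorticoids are the other classic inducers of *MT2A*, through the glucocorticoid receptor, and 10 genes known to respond to them were set beside the metallothioneins. All 10 were tested, 4 were upregulated and 2 downregulated, against 20.2% and 8.18% of all genes, 6 were higher and 2 lower at an adjusted p under 0.05 alone, beside 32.9% and 31.4%, and the median log2 fold change was 0.71. *FKBP5*, a receptor cochaperone, rose by 1.49 (SE 0.11), *DUSP1*, a MAP kinase phosphatase, by 1.67 (SE 0.13), and *ERRFI1*, an inhibitor of the EGF receptor, by 1.11 (SE 0.08). *ZBTB16*, a transcription factor gene, rose by 4.64 (SE 0.71) from 4 counts or fewer in each DMSO sample. The receptor gene *NR3C1* was downregulated, from 163.8, 155.8, and 149.1 CPM with DMSO to 77.7, 85.5, and 68.0 CPM with mocetinostat, a log2 fold change of -1.03 (SE 0.10) that lies close to the threshold. *CEBPD*, a transcription factor gene, was downregulated at -1.88 (SE 0.52), with 9, 0, and 3 counts in the mocetinostat samples. *ZBTB16* passed the filter only through its mocetinostat counts and *CEBPD* only through its DMSO counts. The other direction was not open to either gene, so the counts and the median of this list are descriptions. The part of these genes in the metallothionein values was not tested. Among the genes of the drug's targets, *HDAC1* rose by 0.24 (SE 0.10) and *HDAC3* by 0.44 (SE 0.12) on the log2 scale. *HDAC2* had a value of 0.13 (SE 0.08) that did not pass the test.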
